A study of Homo sapiens with 8 samples.

Results

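The mRNAs of the eukaryotic translation initiation factors were followed after knockdown of ESRRA, the gene of the orphan nuclear receptor ERRα, in MDA-MB231, an established human cell line from a triple-negative breast cancer. Members were all rows of the count table whose symbol starts with EIF plus a digit between 1 and 6, without the Argonaute (EIF2C), eIF2 kinase (EIF2AK), 4E-binding protein (EIF4EBP) and 4E-transporter (EIF4ENIF) genes. This gave 48 of 23368 rows. Cells had been transfected with siE1, siE2 or siE3, which are siRNAs directed against ERRα, or with siC, a control siRNA, and each siRNA had 2 RNA-seq libraries (8 in all). All cells were the same line grown in serum-containing medium, so every group is a model of 1 cell line in culture. The labels do not say that the 2 libraries of a group came from separate cultures, so p-values measure the spread between libraries, which may be technical.

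Translation of most mRNAs begins when a complex of the small ribosomal subunit, initiator tRNA and initiation factors binds near the capped end of the mRNA and scans to the start codon. eIF2 carries the initiator tRNA in its GTP-bound form and eIF2B recharges it with GTP, a step that stress kinases restrain by phosphorylating eIF2. eIF4F recognises the cap and unwinds the leader, eIF3 is the scaffold that holds the small subunit and mRNA together, and eIF5 and eIF5B drive GTP hydrolysis and joining of the large subunit. In tumour cells these factors set how much protein a given pool of mRNA can yield, and several sit downstream of the mTOR pathway.

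The libraries held 21835995 to 25880548 counts. The target was lower with each siRNA, with ESRRA log2 fold changes of -2.62 (siE1), -2.99 (siE2) and -2.92 (siE3). Of 6 genes known to mark this line, all had at least 4750 counts in every library, and 7 genes not expected in it had 0 to 21 counts, with PGR and HBB at 0 throughout. The summed level of those 7 was 1.00 to 1.04 CPM with siE1, 1.21 to 1.60 with siE2, 0.594 to 0.865 with siE3 and 0.639 to 1.03 with siC, where CPM are counts scaled to library size (TMM). The summed level of the 6 markers of the line was 8845 to 8947 CPM with siE1, 9550 to 9634 with siE2, 8939 to 9083 with siE3 and 8357 to 8543 with siC, and the part of either sum in the results was not tested. In bulk RNA, fewer cells of a type and less RNA per cell cannot be told apart. The 48 rows together took 1.26 ± 0.0207% of all counts in siE1 libraries, 1.12 ± 0.0154% in siE2, 1.20 ± 0.0270% in siE3 and 1.302 ± 0.0223% in siC (SD, n = 2 each).

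Of the 48 rows, 43 passed the filter on low counts and were tested. EIF4A1, the main helicase subunit of eIF4F, was listed at 0 counts in every library, as were EIF4E1B, a cap-binding protein gene of the germ line, and EIF3CL. EIF3C, a core eIF3 subunit, had 0 to 2 counts. EIF1AY did not pass the filter either. EIF3C and EIF3CL are near-identical copies: 96.8% of the 50-base windows of the EIF3C transcript also occurred in EIF3CL. EIF4A1 lies wholly inside the read-through gene SENP3-EIF4A1, which had 0 to 7 counts. Whether the authors' counting removed reads shared between copies or overlapping genes was not tested, so the levels of EIF4A1 and EIF3C cannot be read from these counts.

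Calls among the factor mRNAs were mostly towards lower levels, and most numerous for siE2. A gene is called lower or higher where its edgeR adjusted p is below 0.05. With siE1, 17 of 43 tested members were called lower and 3 higher, where 25.8% of all 13395 tested genes were called lower and 24.5% higher. With siE2, 30 members were called lower and 0 higher, against 28.5% and 27.9% of all genes. With siE3, 17 members were called lower and 2 higher, against 20.8% and 21.3% of all genes. As shares of the 43, the lower calls were 39.5% for siE1, 69.8% for siE2 and 39.5% for siE3, and the higher calls were 6.98%, 0% and 4.65%. In the average of the 3 siRNAs, 26 members were called lower and 1 higher, against 27.7% and 23.4% of all genes. The 3 siRNAs were set against the same siC libraries. Without siE1 replicate 2 the lower count for siE1 was 11, and without siC replicate 2 the lower count for siE3 was 10.

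**Figure D1:**
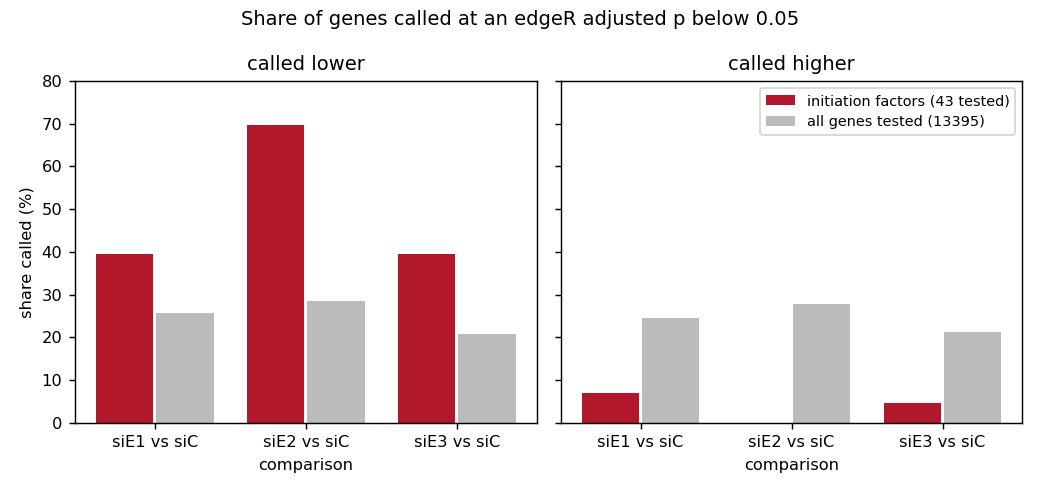
Share of genes (%) called lower (left) or higher (right) with siE1, siE2 and siE3 relative to siC, for the 43 tested initiation factors (red) and all 13395 tested genes (grey). With siE2, 69.8% of the factors were called lower and 0% higher, against 28.5% and 27.9% of all genes.

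The size of the shift was small. The members had median log2 fold changes of -0.04 (siE1), -0.27 (siE2) and -0.09 (siE3), and all tested genes had medians of -0.01, 0.01 and -0.00. The factors were more deeply counted than most genes, with a median of 3858 counts per library against 723 for all tested genes, and a deeper count lets a smaller change pass the test. Among the 9827 genes counted at least as deeply as the lowest tested member, 31.2% were called lower with siE1, 35.8% with siE2 and 25.3% with siE3, and 26.6%, 28.8% and 24.9% were called higher. In 15 of the 43 members (34.9%) all 6 siE libraries lay below both siC libraries, against 15.4% of all tested genes, and in 0 members did they lie above, against 15.1%.

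By pattern, 7 members were called lower with all 3 siRNAs (7.42% of all genes were) and 0 were called higher with all 3 (8.73% of all genes). The 7 were EIF2B3 and EIF2B5 of eIF2B, EIF3J, EIF3K and EIF3L of eIF3, the helicase EIF4A2 and the exon junction helicase EIF4A3. A further 14 (32.6%) were called lower with 2 siRNAs and 15 (34.9%) with 1, against 14.1% and 24.6% of all genes. Of the 15, 10 were lower with siE2 alone (23.3% of members, 10.2% of all genes). The 3 with siE1 alone (6.98% of members, 9.42% of all genes) and the 2 with siE3 alone (4.65% and 4.99%) were near or under the share of all genes. No siRNA gave a call for 5 members (11.6%, against 21.2% of all genes): EIF3A, EIF3B, EIF3I, EIF6 and the pseudogene row EIF3IP1. The count of 7 depended on siC replicate 2: without it, EIF3L and EIF4A2 were the only 2 called lower with all 3. Over all 16 alternative settings, EIF3L kept its 3 lower calls in 16, EIF2B3 in 15, EIF3K, EIF4A2 and EIF4A3 in 14, EIF3J in 13 and EIF2B5 in 8.

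**Figure D2:**
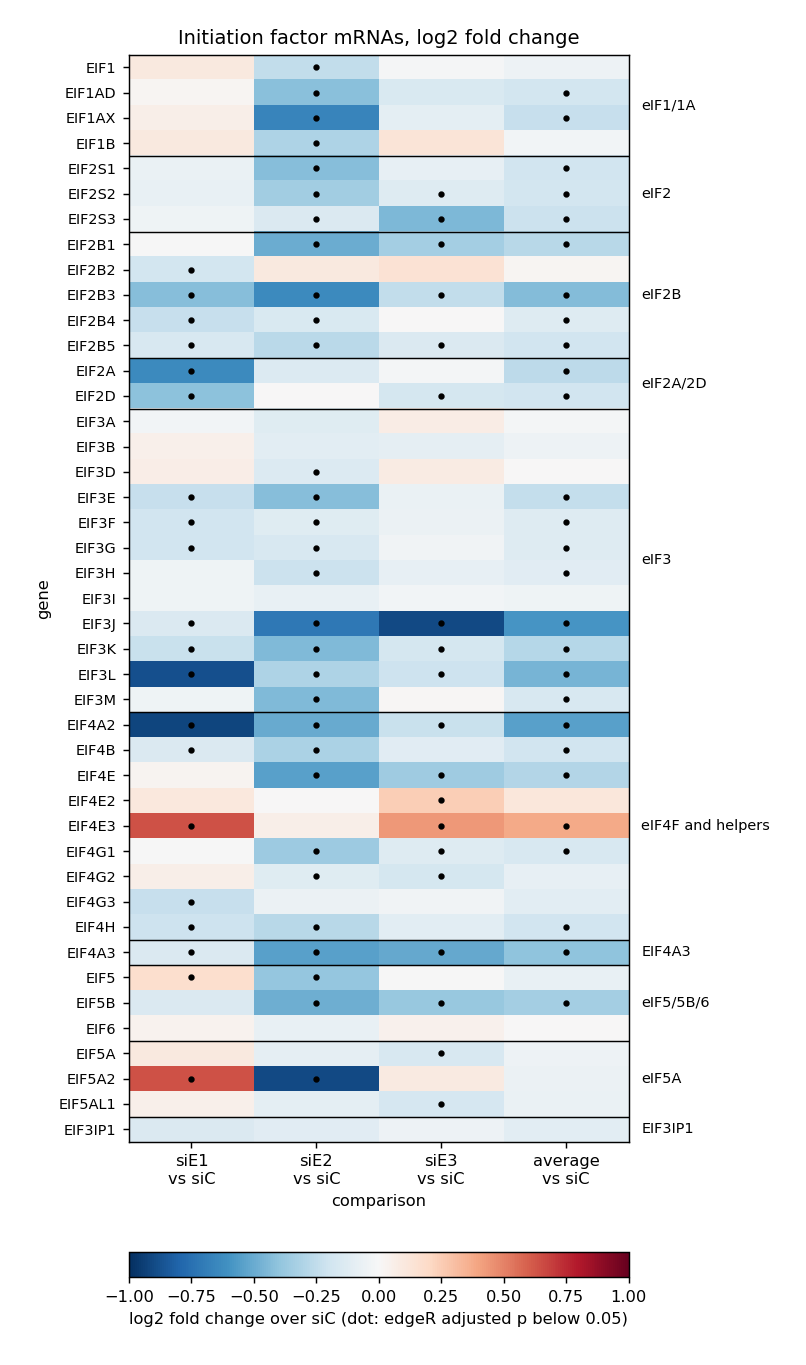
Log2 fold change over siC (colour, blue lower and red higher) of each of the 43 tested initiation factor genes (rows, grouped by complex) with siE1, siE2, siE3 and in their average (columns); a dot marks an edgeR adjusted p below 0.05. The siE2 column holds 30 lower calls and 0 higher, and the darkest cells are EIF4A2 and EIF3L with siE1, EIF5A2 with siE2 and EIF3J with siE3.

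Promoters are shown for the members lower with all 3 siRNAs that hold the E-box CACGTG, the site bound by MYC and related factors, because genes that move together are often compared by their start regions. Each runs from 250 bases before the start to 50 bases after it (RefSeq, GRCh38.p14, which is not the authors' build), with the E-box in capitals.
EIF2B3 (chr1:44986546-44986845, minus strand): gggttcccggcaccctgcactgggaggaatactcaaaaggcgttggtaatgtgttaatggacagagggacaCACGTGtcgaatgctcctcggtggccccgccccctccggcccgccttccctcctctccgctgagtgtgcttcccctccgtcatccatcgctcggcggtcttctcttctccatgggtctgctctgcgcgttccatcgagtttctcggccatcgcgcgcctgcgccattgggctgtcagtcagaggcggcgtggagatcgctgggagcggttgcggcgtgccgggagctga
EIF4A3 (chr17:80147079-80147378, minus strand): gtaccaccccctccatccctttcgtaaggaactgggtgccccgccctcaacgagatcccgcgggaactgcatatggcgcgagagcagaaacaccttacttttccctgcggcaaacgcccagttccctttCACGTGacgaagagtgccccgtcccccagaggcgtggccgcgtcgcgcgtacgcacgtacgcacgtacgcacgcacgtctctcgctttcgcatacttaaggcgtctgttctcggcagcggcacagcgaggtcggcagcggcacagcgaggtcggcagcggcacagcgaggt
EIF3K (chr19:38618938-38619237, plus strand): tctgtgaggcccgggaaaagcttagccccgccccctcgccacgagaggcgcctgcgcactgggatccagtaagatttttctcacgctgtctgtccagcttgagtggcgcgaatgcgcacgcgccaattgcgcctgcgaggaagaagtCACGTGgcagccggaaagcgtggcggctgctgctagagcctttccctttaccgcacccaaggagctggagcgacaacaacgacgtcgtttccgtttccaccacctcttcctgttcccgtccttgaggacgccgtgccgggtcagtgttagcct
The E-box began 179 bases before the start in EIF2B3, 121 before it in EIF4A3 and 103 before it in EIF3K. EIF2B5, EIF3J and EIF4A2 did not hold it, and no promoter of EIF3L was available. The motif was thus in 3 of 6 genes, against 12.4% of all genes searched, and this difference was not tested.

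The promoter table held 36 of the 43 tested members, with 51 promoters, and 9368 of the tested genes. CACGTG, which reads alike on both strands, occurred in 10 of the 36 members (27.8%) and in 12.4% of all genes in the table. The 10 were EIF1B, EIF2B3, EIF3F, EIF3K, EIF4A3, EIF4B, EIF4E, EIF4G1, EIF4H and EIF5A2. All 10 were among the members called lower with siE2, which made up 25 of the 36, so 40% of these held the motif. The share with the motif among all genes called lower with siE2 was not computed. Any link between the E-box and the changes was not tested. The ERR response element TNAAGGTCA was found in 0 of 36 members on either strand and in 0.833% of all genes, and its core AAGGTCA, which lies inside it, in 0 of 36 and 3.70%. A run of at least 6 C or T bases within 10 bases of the start was present in 19 of 36 members (52.8%) and in 28.7% of all genes, a description of letters only. The median GC content was 66% for member promoters and 64.7% for all. The median number of CG pairs, a pair that CACGTG contains, was 28 and 25, and the motif shares were not matched for it.

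In eIF1 and eIF1A, which hold the scanning complex open and check the start codon, lower calls came with siE2. All 4 tested genes were called lower with siE2, and 0 with siE1 or siE3. Among all genes, 28.5% were called lower with siE2, 25.8% with siE1 and 20.8% with siE3. The medians were 0.08 with siE1, -0.36 with siE2 and -0.05 with siE3. EIF1AX, the gene of eIF1A, stood at 99.5 and 99.0 CPM in siE1 libraries, 58.5 and 61.9 in siE2, 84.3 and 94.1 in siE3, and 95.5 and 95.1 in siC. The siE2 libraries were the lowest, and those of siE1 lay above both siC libraries by a few CPM. Its siE2 change was -0.66 (SE 0.0591, edgeR adjusted p = 1.9e-07), while siE1 gave 0.06 and siE3 -0.09. EIF1AD, a protein with an eIF1A-like domain, was at -0.42 with siE2, EIF1B at -0.31 and EIF1, which guards start codon choice, at -0.24. EIF1 with siE2 was not called without siC replicate 2, at -0.13.

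The 3 subunits of eIF2, which brings the initiator tRNA, were all called lower with siE2 and in the average, and 0 with siE1. The shares of all genes called lower were 28.5% with siE2, 27.7% in the average and 25.8% with siE1. EIF2S3, the GTP-binding γ subunit, had 130 and 126 CPM in siE1 libraries, 120 and 119 in siE2, 91.4 and 102 in siE3, and 129 and 135 in siC. The siE3 libraries were the lowest, and the siE1 and siC values overlapped. The change was -0.45 with siE3 (SE 0.0548, edgeR adjusted p = 9.1e-06), -0.14 with siE2 and -0.04 with siE1. EIF2S1, the α subunit that stress kinases phosphorylate, was called with siE2 alone, at -0.42, as siE1 gave -0.06 and siE3 -0.08. EIF2S2, the β subunit, was at -0.07 with siE1, -0.35 with siE2 and -0.13 with siE3, and the last 2 were called. The siE2 call of EIF2S3 was lost without siC replicate 2 (-0.11), siE2 replicate 1 (-0.15) or siE2 replicate 2 (-0.13), and also with the DESeq2 Wald test (-0.14), library size alone (-0.10) or the stricter filter (-0.12). The siE3 call of EIF2S2 was lost without siC replicate 1 (-0.16), siC replicate 2 (-0.11), siE1 replicate 1 (-0.13), siE2 replicate 1 (-0.13) or siE3 replicate 1 (-0.09), with the DESeq2 Wald test (-0.13) and in a fit of siE3 and siC alone (-0.13).

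eIF2B, the exchange factor that returns eIF2 to its GTP-bound form, had lower calls for 4 of 5 subunits with siE1, 4 with siE2 and 3 with siE3. The shares of all genes called lower were 25.8%, 28.5% and 20.8%. EIF2B3, the γ subunit of the catalytic arm, had 42.5 and 44.9 CPM in siE1 libraries, 35.1 and 40.6 in siE2, 50.1 and 49.2 in siE3, and 58.4 and 59.2 in siC. All 6 siE libraries lay below both siC libraries, those of siE2 lowest. The changes were -0.43 with siE1, -0.64 with siE2 and -0.24 with siE3, giving an average of -0.44 (SE 0.0552, edgeR adjusted p = 9.9e-06). EIF2B5, the catalytic ε subunit, had 118 and 112 CPM in siE1 libraries, 108 and 104 in siE2, 117 and 115 in siE3, and 123 and 134 in siC. These groups did not overlap either, with changes of -0.16, -0.27 and -0.14 and an average of -0.19 (SE 0.0425, edgeR adjusted p = 0.0015).

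The regulatory subunits of eIF2B, which sense phosphorylated eIF2, did not share 1 pattern. EIF2B1 (α) was at -0.00 with siE1, -0.49 with siE2 and -0.34 with siE3, and the last 2 were called. EIF2B4 (δ) was called with siE1 (-0.23) and siE2 (-0.15) and stood at 0.00 with siE3. EIF2B2 (β) was called lower with siE1 (-0.18), while siE2 gave 0.10 and siE3 0.14. In the GENCODE annotation, 23.56% of EIF2B2 and 15.55% of EIF2B1 exon bases are shared with genes on the opposite strand. For EIF2B2 the difference of siE1 from siE2 was -0.28 (SE 0.0609, edgeR adjusted p = 0.00094) and from siE3 -0.33 (SE 0.0609, edgeR adjusted p = 0.00040). The calls of EIF2B2 and EIF2B4 were not rechecked gene by gene. Among the lower calls of EIF2B1, EIF2B3 and EIF2B5, that of EIF2B3 with siE3 was lost without siC replicate 2 (-0.23). Those of EIF2B5 were lost without siC replicate 2 (siE1 -0.10, siE3 -0.08, average -0.13), siE1 replicate 2 (siE1 -0.13), siE2 replicate 1 (siE3 -0.14), siE3 replicate 1 (siE3 -0.16) or siE3 replicate 2 (siE3 -0.13). The siE3 call of EIF2B5 was also lost with the DESeq2 Wald test (-0.15) and in a fit of siE3 and siC alone (-0.14).

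Both factors that can deliver initiator tRNA apart from eIF2 were called lower with siE1, as were 25.8% of all genes. EIF2A had 148 and 136 CPM in siE1 libraries, 207 and 196 in siE2, 203 and 233 in siE3, and 212 and 230 in siC. The siE1 libraries were the lowest, those of siE2 lay just under both siC libraries and siE3 overlapped siC. The siE1 change was -0.64 (SE 0.0649, edgeR adjusted p = 1.1e-06), and siE2 (-0.13) and siE3 (-0.02) were not called. The differences of siE1 from siE2 (-0.50) and from siE3 (-0.62) were called. EIF2D, which also takes part in ribosome recycling, was at -0.41 with siE1 and -0.17 with siE3, both called, and at 0.01 with siE2. The siE2 value of EIF2A was called in 5 of 16 alternatives, at -0.13 to -0.19. The siE3 call of EIF2D was lost without siC replicate 2 (-0.11), siE3 replicate 1 (-0.19) or siE3 replicate 2 (-0.15) and with the DESeq2 Wald test (-0.17), and its call in the average (-0.19) without siC replicate 2 (-0.13).

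eIF3 is the largest factor, and 12 of its 14 rows were tested. Lower calls numbered 6 with siE1, 9 with siE2 and 3 with siE3, and 0 subunits were called higher. Of all genes, 25.8%, 28.5% and 20.8% were called lower and 24.5%, 27.9% and 21.3% higher. The siE3 count of lower calls was near the 20.8% of all genes. It was also near the 25.3% of genes counted at least as deeply as the lowest tested member. The medians were -0.10, -0.19 and -0.06. The 3 lower calls with siE3 were EIF3J, EIF3K and EIF3L. EIF3J, a loosely attached subunit that binds near the decoding site, had 202 and 194 CPM in siE1 libraries, 135 and 132 in siE2, 110 and 124 in siE3, and 215 and 223 in siC. The siE2 and siE3 libraries were far below those of siC, and the siE1 libraries only a little. The changes were -0.15 with siE1, -0.71 with siE2 (SE 0.0537, edgeR adjusted p = 3.1e-08) and -0.90 with siE3 (SE 0.0542, edgeR adjusted p = 5.4e-09). The siE1 call of EIF3J was lost without siC replicate 2 (-0.12) or siE1 replicate 2 (-0.12) and with the DESeq2 Wald test (-0.14).

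EIF3L and EIF3K, neighbours in the eIF3 structure that some eukaryotes lack, were both lower with all 3 siRNAs but in different order. EIF3L had 169 and 159 CPM in siE1 libraries, 244 and 243 in siE2, 256 and 266 in siE3, and 299 and 303 in siC. The groups did not overlap with siC, and siE1 was lowest, at -0.88 (SE 0.0448, edgeR adjusted p = 6.2e-10), against -0.30 with siE2 and -0.20 with siE3. In the GENCODE annotation 51.8% of EIF3L exon bases are shared with AL022311.1 on the same strand or ANKRD54 on the opposite strand. In shared bases, reads of EIF3L and ANKRD54 cannot be told apart without strand. Strand would not separate reads of EIF3L and AL022311.1. EIF3K had 158 and 155 CPM in siE1 libraries, 139 and 129 in siE2, 154 and 169 in siE3, and 177 and 189 in siC. All 6 siE libraries lay below both siC libraries, and siE2 was lowest at -0.45, against -0.22 with siE1 and -0.18 with siE3 (average -0.28, SE 0.0443, edgeR adjusted p = 7.5e-05). The siE3 call of EIF3K was lost without siC replicate 2 (-0.13) or siE3 replicate 1 (-0.12).

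EIF3E and EIF3M, of the outer octamer, were at -0.43 and -0.44 with siE2, both called. EIF3E was also called with siE1 (-0.23), while EIF3M was at -0.04 with siE1 and 0.01 with siE3. EIF3F and EIF3G were called with siE1 (-0.19 each) and siE2 (-0.12 and -0.16), EIF3H with siE2 alone (-0.22) and the cap-contacting subunit EIF3D with siE2 alone (-0.14). The core subunits EIF3A, EIF3B and EIF3I were not called with any siRNA, with values between -0.12 and 0.07. The calls of EIF3D, EIF3E, EIF3F, EIF3G, EIF3H and EIF3M were not rechecked gene by gene in the alternatives. With library size alone, 25 of the 30 siE2 calls over all members were kept.

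**Figure D3:**
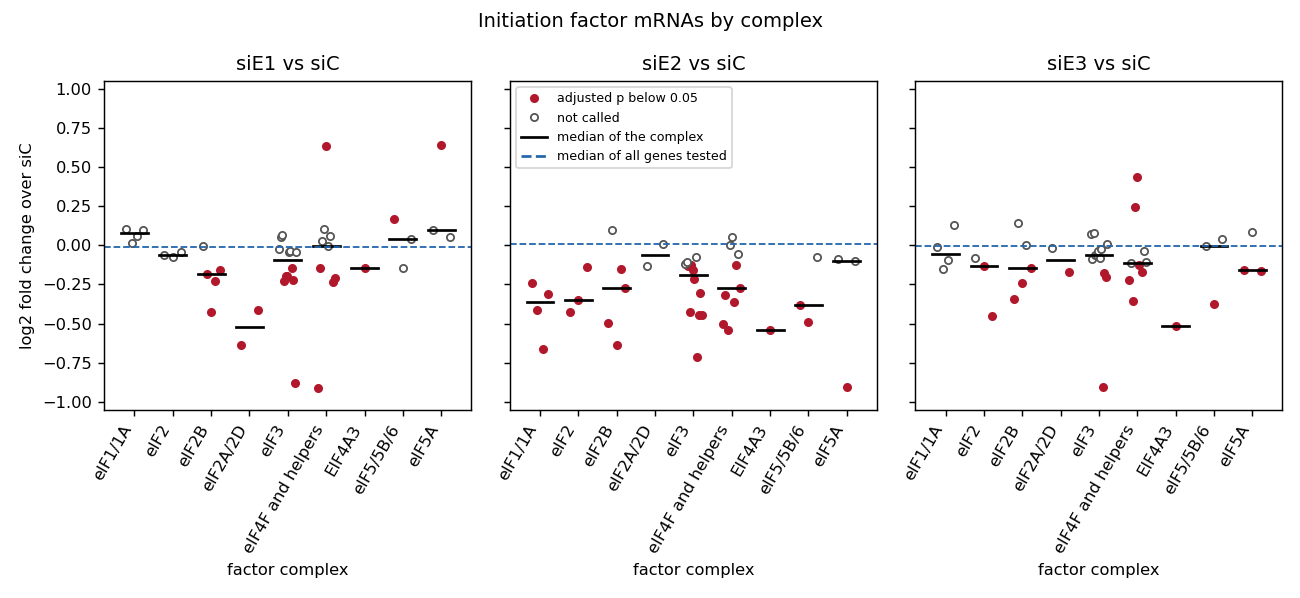
Log2 fold change over siC of each tested initiation factor gene (points, filled red where the edgeR adjusted p is below 0.05) by complex, with siE1, siE2 and siE3 in separate panels; black bars are medians of a complex and the dashed line is the median of all tested genes. The eIF1/1A median is 0.08 with siE1 and -0.36 with siE2, and the eIF2A/2D median -0.53 with siE1 and -0.06 with siE2.

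Of eIF4F and its helpers, 9 of 11 rows were tested, and calls went in both directions. Lower calls numbered 4 with siE1, 6 with siE2 and 4 with siE3, and higher calls 1, 0 and 2. Of all tested genes, 25.8%, 28.5% and 20.8% were called lower and 24.5%, 27.9% and 21.3% higher. The 2 higher calls with siE3 were near that share. EIF4A2, the second eIF4A helicase, had 238 and 271 CPM in siE1 libraries, 320 and 358 in siE2, 424 and 398 in siE3, and 490 and 470 in siC. All 6 siE libraries lay below both siC libraries, in the order siE1, siE2, siE3. The changes were -0.91 with siE1 (SE 0.0622, edgeR adjusted p = 1.4e-08), -0.50 with siE2 and -0.22 with siE3. The siE3 call was lost without siC replicate 1 (-0.20) or siE3 replicate 2 (-0.18). EIF4A2 hosts small nucleolar RNAs, and 17.9% of its exon bases are shared with other genes.

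EIF4E, the cap-binding subunit, had 28.96 and 27.87 CPM in siE1 libraries, 18.5 and 19.7 in siE2, 20.2 and 23.4 in siE3, and 27.8 and 28.1 in siC. It was lower with siE2 (-0.54) and siE3 (-0.36), both called, and its siE1 libraries overlapped those of siC (0.02). EIF4G1, the scaffold, was at -0.36 with siE2 and -0.13 with siE3, both called, and at -0.00 with siE1. EIF4G2, a scaffold that lacks the cap-binding partner site, was at -0.12 with siE2 and -0.17 with siE3, both called. EIF4G3, the other full-length scaffold, was called with siE1 alone (-0.23). The helicase stimulators EIF4B (-0.15 and -0.31) and EIF4H (-0.21 and -0.27) were called with siE1 and siE2. The siE1 call of EIF4B was lost without siC replicate 1 (-0.15), siC replicate 2 (-0.15) or siE1 replicate 2 (-0.12). Calls of EIF4E, EIF4G1, EIF4G2 and EIF4G3 were not rechecked gene by gene.

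The higher calls of this complex were 2 homologues of the cap-binding subunit. EIF4E3 had 9.94 and 10.2 CPM in siE1 libraries, 5.62 and 7.81 in siE2, 9.42 and 8.09 in siE3, and 7.21 and 5.74 in siC. The siE1 and siE3 libraries lay above both siC libraries, and those of siE2 overlapped them. EIF4E3 was the only member called higher in the average, at 0.38 (SE 0.133, edgeR adjusted p = 0.027), with 0.64 for siE1 and 0.44 for siE3 called and 0.06 for siE2. It was also the member with the fewest counts (130 at the lowest). The siE1 call was lost without siC replicate 2 (0.48), the siE3 call without siC replicate 2 (0.28) or siE3 replicate 1 (0.32), and the call in the average without siC replicate 2 (0.22), siE2 replicate 2 (0.29) or siE3 replicate 1 (0.34). With the DESeq2 Wald test the siE3 call (0.43) and the call in the average (0.37) were lost too. EIF4E2, a cap-binding protein that represses translation, was called higher with siE3 alone (0.24), with 0.10 for siE1 and 0.00 for siE2. This call was not rechecked in the alternatives, and 24.2% of EIF4E2 exon bases are shared with genes on the opposite strand.

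EIF4A3 shares the helicase fold of eIF4A but belongs to the exon junction complex, which marks spliced mRNA. It had 262 and 266 CPM in siE1 libraries, 201 and 199 in siE2, 201 and 207 in siE3, and 285 and 298 in siC. The siE2 and siE3 libraries lay close together and lowest, and the groups did not overlap with siC. The changes were -0.15 with siE1, -0.54 with siE2 and -0.52 with siE3, giving an average of -0.40 (SE 0.0340, edgeR adjusted p = 1.6e-07). The siE1 call was lost without siC replicate 2 (-0.11) or siE1 replicate 1 (-0.14).

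**Figure D4:**
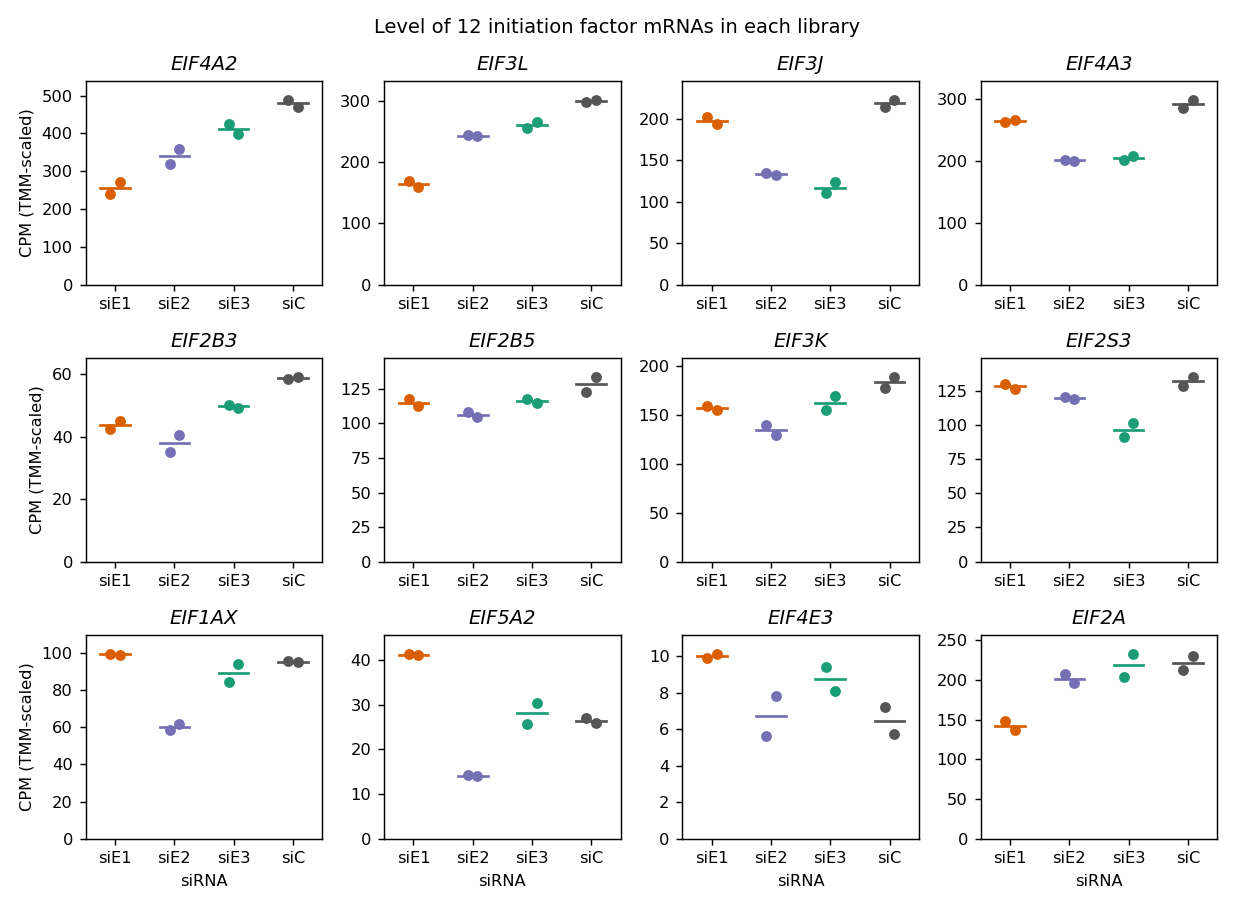
Level (CPM scaled by TMM, linear axes from 0) of 12 initiation factor mRNAs in each library of siE1, siE2, siE3 and siC (points, 2 per group) with the group mean (bar). EIF4A2 and EIF3L were lowest with siE1, EIF3J with siE3 and EIF1AX with siE2, and EIF5A2 averaged 41.2 CPM with siE1, 14.1 with siE2, 28.1 with siE3 and 26.4 with siC.

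Among the factors of subunit joining, EIF5B, the GTPase that joins the large subunit, was at -0.49 with siE2 and -0.38 with siE3, both called, and at -0.14 with siE1, where the edgeR adjusted p was 0.061. Without a filter on low counts, in a fit of siE1 and siC alone, and without either siE3 library, the siE1 value of EIF5B was called, at -0.13 to -0.15. EIF5, which triggers GTP hydrolysis by eIF2, had 732 and 678 CPM in siE1 libraries, 488 and 474 in siE2, 579 and 670 in siE3, and 603 and 653 in siC. Its siE1 libraries lay above and its siE2 libraries below both siC libraries, and siE3 overlapped siC. The changes were 0.17 with siE1 (SE 0.0614, edgeR adjusted p = 0.034), -0.38 with siE2 (SE 0.0617, edgeR adjusted p = 7.6e-05) and -0.01 with siE3. The siE1 call of EIF5 was lost without siC replicate 1 (0.11) or siE1 replicate 1 (0.11). EIF6, which keeps free large subunits apart from small ones, was not called, at 0.04, -0.07 and 0.04.

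eIF5A carries the modified residue hypusine and is known today for elongation and termination. EIF5A2, the paralog with restricted expression, had 41.4 and 41.0 CPM in siE1 libraries, 14.2 and 14.1 in siE2, 25.7 and 30.4 in siE3, and 27.1 and 25.8 in siC. The siE1 libraries were far above siC and the siE2 libraries far below, while siE3 overlapped siC. The changes were 0.64 with siE1 (SE 0.0794, edgeR adjusted p = 8.0e-06), -0.90 with siE2 (SE 0.0901, edgeR adjusted p = 6.1e-07) and 0.09 with siE3. In the average they cancelled to -0.06. EIF5A itself was at 0.10, -0.09 and -0.16, with the siE3 value called. Its siE1 value was called higher in 8 of 16 alternatives (0.10 to 0.11), and its siE2 value was called lower without a filter on low counts (-0.10) and without siE2 replicate 1 (-0.15). EIF5AL1, an EIF5A-like gene, gave 0.05, -0.10 and -0.17, with the last called. EIF5AL1 shares 11.6% of its 50-base windows with EIF5A, and its counts were 11.6% to 12.3% of the pair's in every library, so the 2 rows may not be separate measurements. Without siE2 replicate 1 the siE2 value of EIF5AL1 was called (-0.20). The siE3 call of EIF5AL1 was lost without siC replicate 2 (-0.12), siE3 replicate 1 (-0.15) or siE3 replicate 2 (-0.18).

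The promoter of EIF5A2 is printed because this gene differed most between siRNAs and was 1 of 3 members with a pair of E-boxes (capitals), which began 187 and 162 bases before the start (RefSeq, GRCh38.p14).
EIF5A2 (chr3:170908588-170908887, minus strand): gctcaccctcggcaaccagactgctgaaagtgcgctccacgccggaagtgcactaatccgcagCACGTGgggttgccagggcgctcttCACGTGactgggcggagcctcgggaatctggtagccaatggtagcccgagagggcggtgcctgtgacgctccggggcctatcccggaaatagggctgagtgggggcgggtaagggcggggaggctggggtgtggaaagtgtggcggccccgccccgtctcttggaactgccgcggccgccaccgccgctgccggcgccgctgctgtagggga

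The siRNAs also differed among themselves. Between siE1 and siE2, 27 members were higher with siE1 and 6 lower, against 28.5% and 28.6% of all genes. Between siE1 and siE3, 15 were higher with siE1 and 11 lower, against 23.3% and 25.4% of all genes. Between siE2 and siE3, 3 were higher with siE2 and 24 lower, against 23.4% and 25% of all genes. The widest gap was that of EIF5A2, 1.54 for siE1 over siE2 (SE 0.0859, edgeR adjusted p = 1.0e-09). EIF3J differed by 0.76 for siE1 over siE3 (SE 0.0543, edgeR adjusted p = 2.8e-08), EIF1AX by 0.72 for siE1 over siE2 (SE 0.0588, edgeR adjusted p = 6.5e-08) and EIF4A2 by -0.69 for siE1 over siE3 (SE 0.0622, edgeR adjusted p = 3.2e-07). The higher count for siE1 over siE3 was 9 without siE1 replicate 1 or siE3 replicate 1, and the lower count 5 without siE1 replicate 2. The higher count for siE2 over siE3 was 1 without siE2 replicate 1.

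Where a factor is encoded by a pair of genes, the balance also differed by siRNA for EIF5A2 with EIF5A and EIF4G3 with EIF4G1. EIF5A2 made up 3.83 ± 0.00747% of EIF5A2 and EIF5A counts with siE1, 1.53 ± 0.0731% with siE2, 3.13 ± 0.368% with siE3 and 2.66 ± 0.0917% with siC (SD, n = 2 each). EIF4G3 made up 7.35 ± 0.186% of EIF4G3 and EIF4G1 counts with siE1, 10.3 ± 0.273% with siE2, 8.99 ± 0.0566% with siE3 and 8.51 ± 0.0251% with siC. These are shares of counts, not corrected for transcript length, and were not tested. EIF1B took 11.8 ± 0.0900% with siE1, 11.3 ± 0.369% with siE2, 12.9 ± 0.332% with siE3 and 11.9 ± 0.881% with siC of the EIF1B and EIF1 counts. The siC libraries were at 12.5% and 11.2%, and the siE1 and siE2 means lay between them.

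Regulators of initiation changed in both directions. Of 29 tested genes of this list, 12, 12 and 8 were called lower with siE1, siE2 and siE3, and 8, 8 and 4 higher (all genes: 25.8%, 28.5% and 20.8% lower, 24.5%, 27.9% and 21.3% higher), with medians of -0.03, -0.07 and -0.01. PDCD4, a repressor of the eIF4A helicase, averaged 30.2 ± 1.36 CPM with siE1, 59.5 ± 1.24 with siE2, 44.0 ± 1.87 with siE3 and 16.8 ± 0.749 with siC (SD, n = 2 each). It rose with each siRNA, by 0.85, 1.83 and 1.39 (average 1.36, SE 0.0631, edgeR adjusted p = 3.7e-10). DDIT4, an mTOR inhibitor induced by stress, rose by 1.01, 2.00 and 1.02 (average 1.34, SE 0.156, edgeR adjusted p = 4.0e-06). RPS6KB1, the S6 kinase gene downstream of mTOR, was lower in the average by -0.62. The poly(A)-binding protein genes PABPC4 (-0.53) and PABPC1 (-0.20) and PAIP2B (-0.52), an inhibitor of that protein, were also called lower with all 3.

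A list of elongation and termination factors, which also holds mitochondrial factors, had mostly lower calls. Of 21 tested, 8, 16 and 7 were called lower with siE1, siE2 and siE3 (25.8%, 28.5% and 20.8% of all genes) and 2, 1 and 0 higher (24.5%, 27.9% and 21.3% of all genes), with medians of -0.12, -0.27 and -0.08. Called lower with all 3 siRNAs were GFM1 (-0.62 in the average) and TUFM (-0.22), elongation factors of mitochondria, MRRF (-0.56), which recycles mitochondrial ribosomes, MTIF2 (-0.27), which is the mitochondrial initiation factor of that list, and EEF2 (-0.28), the cytosolic translocase. Of 6 tested genes around hypusine and polyamines, which eIF5A needs, 4, 4 and 3 were called lower and 0 higher. The shares of all genes were as given for the list above. ODC1, the first enzyme of polyamine synthesis, was lower with all 3, at -0.45, -1.07 and -0.68 (average -0.73, SE 0.0354, edgeR adjusted p = 5.3e-10).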

How the data were processed

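RNA-seq libraries of MDA-MB231 cells (siE1, siE2, siE3 and siC, 2 each) were read from the authors' deposited table, whose values are raw counts per gene symbol, per the file headers. TopHat 1.3.3, HTSeq, DESeq and build hg19 are named, per the submitters' processing notes. Annotation, strand setting and filters: not given in the sources used here. Without strand, overlapping and antisense genes may share reads. The authors' deposited fold (a linear ratio) and adjusted p-value for each siRNA were used only for a comparison of calls.

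Groups came from the titles. Of 23368 rows, 5492 had no count in any library. filterByExpr of edgeR 4.0.16 kept 13395 genes, TMM factors were 0.980 to 1.02, and 1 quasi-likelihood fit (glmQLFit, glmQLFTest) over 8 libraries left 4 residual degrees of freedom, with a biological coefficient of variation of 4.08%. P-values were adjusted by Benjamini-Hochberg over all tested genes in each comparison, with a threshold of 0.05. The SE was the log2 change over the square root of F. The code was tested on simulated data in which few genes, drawn from all tested genes, were changed. There 32% to 44% of changes of 0.25 were recovered and 68% to 74% of changes of 0.5. Of the calls there, 5.84% to 8.33% were false. The real data had far more called genes, and the members were counted more deeply than most genes. The simulated rates are therefore not rates for the members. A small change without a call may still be missed.

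The members, the complexes and the other gene lists were chosen with earlier results of these data known. Every member could be named. Values in every library were given for members called the same way by all 3 siRNAs, the highest and lowest averages among members called there (at most 4 each, and 1 was higher), the 3 largest changes of each siRNA and the 4 widest gaps between siRNAs. Library values of EIF2A, EIF3IP1, EIF4E and EIF5 were added after theirs were seen. From the other lists, up to 6 genes called with all 3 siRNAs were named.

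Alternatives tried were limma-voom (limma 3.58.1), the Wald test of DESeq2 1.42.0, its size factors, no scaling factor, no filter, a filter at 50 total counts and a mean of 1 CPM, a fit of the compared groups alone, a replicate block and leaving out each library. Replicates were compared by a chi-square over 12364 genes and none agreed within sampling noise (3.11 to 5.12 per degree of freedom). Promoters came from RefSeq (GRCh38.p14) and exon overlaps and shared windows of 50 bases from GENCODE 29 on GRCh38. Analyses used R 4.3.3, Python 3.11.15, numpy 2.4.6, pandas 2.3.3 and matplotlib 3.10.9.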

Additional observations from a re-analysis of the deposited data

Results flagged for a closer look

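For 2 genes the siE1 and siE2 changes ran in opposite directions, each past the threshold, and the test of the difference was past it too. EIF5A2 was at 0.64 with siE1 and -0.90 with siE2, a difference of 1.54 (SE 0.0859, edgeR adjusted p = 1.0e-09), with both siE1 libraries above and both siE2 libraries below the siC libraries. EIF5 was at 0.17 with siE1 and -0.38 with siE2, a difference of 0.55 (SE 0.0617, edgeR adjusted p = 2.0e-06), with the same placing of libraries. Opposite calls between siRNAs occurred in 2 of 43 members (4.65%) and in 10.7% of all tested genes. Groups of 2 libraries are too small for a check of outlying libraries.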

How the results depend on the processing

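No called change of a named member turned its direction under the alternatives run. Uncalled values did so 25 times, all of a size up to 0.10, and medians of a complex 8 times, up to 0.05. The members' median for siE1 over siE3 was -0.01, and 0.02 without siE1 replicate 2, and the medians of all genes crossed 0 in several alternatives. The fits of only the groups compared do not exist for the average of 3 siRNAs. Calls of EIF1B, EIF2B2, EIF2B4, EIF3A, EIF3B, EIF3D to EIF3I, EIF3M, EIF4E, EIF4E2 and EIF4G1 to EIF4G3 were not recomputed gene by gene. For these genes only the counts of calls over all members and the medians show the effect of the alternatives. Of 1638 recomputed log2 fold changes of named members, 61 lost a call and 27 gained one, the gains in EIF1, EIF1AD, EIF1AX, EIF2A, EIF2S1, EIF4B, EIF5, EIF5A, EIF5AL1 and EIF5B. Members called higher in the average numbered 1, but 2 with library size alone or the stricter filter, 0 with the DESeq2 Wald test and 0 to 1 when 1 library was left out. Members higher with siE2 than with siE3 numbered 3, but 5 with library size alone and 1 to 3 with a library left out. Members higher with siE3 than with siC numbered 2, but 1 with the DESeq2 Wald test and 1 to 3 with a library left out. With a library left out, the lower count was 10 to 17 for siE3, 11 to 18 for siE1 and 2 to 7 for all 3 siRNAs. The counts for siE1 over siE3 were then 9 to 15 higher and 5 to 11 lower.

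Same-numbered libraries showed no strong shared deviation, with correlations of -0.18 to 0.11 over the 6 pairs of groups. Whether they were handled together is not given in the labels and cannot be told from these correlations. With the replicate block, 17 members were lower and 3 higher with siE1, 27 and 0 with siE2, 12 and 1 with siE3, 25 and 1 in the average, and 6 lower with all 3. The block ended the siE3 calls of EIF2B5, EIF2D, EIF2S2, EIF4E3 and EIF5AL1 and the siE2 call of EIF2S3, among the named members.

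Of the 61 lost calls, 48 were of changes under 0.2 on the log2 scale; the others were of EIF1, EIF2B3, EIF4A2 and EIF4E3. Of 630 recomputed medians of a complex, 47 moved beyond the spread between replicates. Library size alone moved the median of all genes with siE2 to 0.05 and that of the members to -0.23. EIF4A1 and EIF3C were not measured, and EIF4E3 rested on the fewest counts.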

Other observations

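By the adjusted p-value of the authors' deposited table, below 0.05, siE1 gave 14 lower and 2 higher members, siE2 gave 27 lower and 0 higher, and siE3 gave 10 lower and 1 higher. Of these, 13 and 2, 26 and 0, and 10 and 1 had the same call in the edgeR fit. The exceptions were EIF5B with siE1 and EIF3A with siE2. In the other direction, the edgeR fit had more lower calls, at 17, 30 and 17. Of the 7 members it called lower with all 3 siRNAs, EIF2B3, EIF3L and EIF4A2 passed with all 3 in the deposited values. The others did not. The authors' adjusted p was 0.073 (siE1) and 0.18 (siE3) for EIF2B5 and 0.055 (siE1) for EIF3J. It was 0.078 (siE3) for EIF3K and 0.051 (siE1) for EIF4A3.

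EIF3IP1, a pseudogene row of EIF3I, had 23.4 and 20.7 CPM in siE1 libraries, 22.8 and 22.2 in siE2, 23.3 and 23.8 in siE3, and 24.4 and 24.4 in siC. All 6 siE libraries lay below siC, but no siRNA gave a call (-0.15, -0.12 and -0.05). It shares 0.76% of its 50-base windows with EIF3I.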
